A study of Homo sapiens with 13 samples.

Results

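HOX genes encode homeodomain transcription factors that give cells their position along the body axis, and in human they lie in clusters A, B, C and D on different chromosomes. Genes were taken as HOX genes where their symbol is HOX followed by a cluster letter and a number, which gave 39 of the 14575 genes with 3’ ends in the data: 11 of HOXA, 10 of HOXB, 9 of HOXC and 9 of HOXD. Within a cluster all genes are read in the same direction, and numbers count from the 3’ end of the cluster (group 1, anterior) to its 5’ end (group 13, posterior). Genes with the same number in different clusters are paralogs. HOX proteins bind DNA together with TALE homeodomain cofactors (PBX, MEIS and PKNOX), Trithorax group methyltransferases keep the clusters active, and Polycomb complexes keep them silent.

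Poly(A) RNA was measured by 3’ READS, which sequences the 3’ ends of polyadenylated RNA, in HEK293 Flp-in T-REx cells, an established human embryonic kidney line. The cells carried an integrated pcDNA5 plasmid for a tagged, α-amanitin resistant Rpb1, the largest subunit of Pol II, either wild-type (5 libraries) or with the R749H substitution that slows elongation (4 libraries). In both lines Rpb1 was induced with doxycycline at 2 µg/ml and the endogenous Pol II was blocked with α-amanitin at 2.5 µg/ml for 42 hr. The labels give 24 hr of doxycycline and the study’s methods a shorter induction before α-amanitin. The tag is given as Avitag in the sample titles and as B10 in the source names. The sources name 1 line per genotype, so genotype and line cannot be told apart. The comparison asks how HOX RNA levels and 3’ ends differ between them. The study calls the libraries biological replicates.

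The wild-type libraries held between 2479851 and 10135014 reads within 5 kb of a stop codon, and the R749H libraries between 3863468 and 6475987. R749H replicate 3 stood apart in listing 41033 3’ ends, against 73112 to 112834 in the other libraries. Of the intermediate filament genes known from HEK293 cells, KRT8, KRT18 and VIM were present (VIM was lower in R749H), NEFM was near 0 and NEFL was not listed. Of 6 markers of other cell types, EPCAM was present in both lines, CD3E, ALB and COL1A1 were near 0, and PTPRC and PECAM1 were not listed.

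The 3’ ends of the most abundant HOX gene of each cluster are shown first, as the 30 nt before cleavage (GRCh37, 5’ to 3’ in the direction of the RNA), with the AATAAA signal in capitals. HOXA10 ends at chr7:27210226-27210255 (minus strand), HOXB6 at chr17:46673114-46673143 (minus strand), HOXC9 at chr12:54396724-54396753 (plus strand) and HOXD10 at chr2:176984635-176984664 (plus strand). All lie in the annotated 3’ UTR of their gene.
HOXA10: atgttcttatagAATAAAagctgtggaatg
HOXB6: caacaacaatAATAAAgatgtgaaaactcg
HOXC9: caaccgaAATAAAtgacacatacaaatgtg
HOXD10: gcatgtataatgcAATAAActctggaaatg

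The next ends are shown because the shares of the HOXA5 main end and the HOXD4 proximal end did not overlap between the lines, and were chosen after their values were seen. They are the main end of HOXA5 (chr7:27180677-27180706, minus strand), and the proximal end of HOXD4 with both of its distal ends, which overlapped (chr2:177017924-177017953, chr2:177020706-177020735 and chr2:177020769-177020798, plus strand). Capitals mark AATAAA or its common variant ATTAAA. Both distal HOXD4 ends lie outside the annotated HOXD4 gene and inside that of HOXD3, which is read on the same strand.
HOXA5 main: gactggaacaaaaAATAAActttctattgt
HOXD4 proximal: tcttggcgagtcATTAAActtatgaaaatc
HOXD4 distal, first: gctgccactgATTAAAgtattatttatact
HOXD4 distal, second: atctatatttaaaatAATAAAaggtgtagc

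Signals were counted in the 40 nt before the main end of each gene that averaged 20 or more reads over the libraries, on the RNA strand, with AATAAA taken before ATTAAA. Of 27 such HOX genes, 23 (85.2%) had AATAAA, 3 (11.1%) had ATTAAA alone and 1, HOXD9, had neither, against 67.7%, 16.7% and 15.6% of all 7870 genes. The main end lay a median of 860 nt after the stop codon for HOX genes (295 to 3065 nt) and 660 nt for all genes. Of 74 HOX sites with at least 5% of the reads of their gene, 61 lay in its annotated 3’ UTR and 13 outside the annotated gene. Some genes share a strand with a longer neighbour (HOXA4, HOXA5 and HOXA6 lie within the annotated HOXA3, and HOXB4, HOXB5 and HOXB6 within HOXB3). Ends of HOXC5 and HOXC6 also lie within the annotated HOXC4, those of HOXC9 within HOXC6 and that of HOXD11 within HOXD10. Ends of HOXA10 lie within HOXA9, and those of HOXB8 and HOXB9 within HOXB7. Each end was listed under 1 gene of its strand.

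Levels are given as RPM, reads per 1000000 reads of a library, after normalisation with TMM factors. A transcript gives 1 end, so levels of different genes were compared without a correction for length. All 39 genes had at least 1 read and 27 had reads in every library. HOX genes held 38765 reads in all, with HOXD10 and HOXB6 the most abundant and HOXB1, HOXD1 and HOXD12 at 2, 2 and 5 reads in total.

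More HOX genes were lower than higher in R749H, most of them in clusters A and B. Of 31 HOX genes with enough reads to test, 11 were lower and 1 was higher at an adjusted p under 0.05 (limma, Benjamini-Hochberg over 9494 genes), where 12.9% and 10.9% of all genes were called lower and higher. By cluster, 5 of 9 HOXA genes, 5 of 9 HOXB genes, 0 of 6 HOXC genes and 1 of 7 HOXD genes were called lower, and the 1 higher gene was HOXC5. No HOXC gene was lower at an unadjusted p under 0.05 either (0 of 6), nor by edgeR or DESeq2. No test of the difference between clusters was made. The median log2 difference (R749H minus wild-type) was -0.66 over the HOX genes and -0.07 over all genes, and it was -0.66 in HOXA, -1.11 in HOXB, -0.11 in HOXC and -0.12 in HOXD. With the authors’ scaling alone, the median of all genes moved to -0.41, 27.7% of genes were called lower and 4.55% higher, and the HOX counts became 17 lower and 0 higher. Libraries of the lines did not overlap for 13 HOX genes that were lower and 1 that was higher, against 10.1% and 9.72% of all genes.

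**Figure D1:**
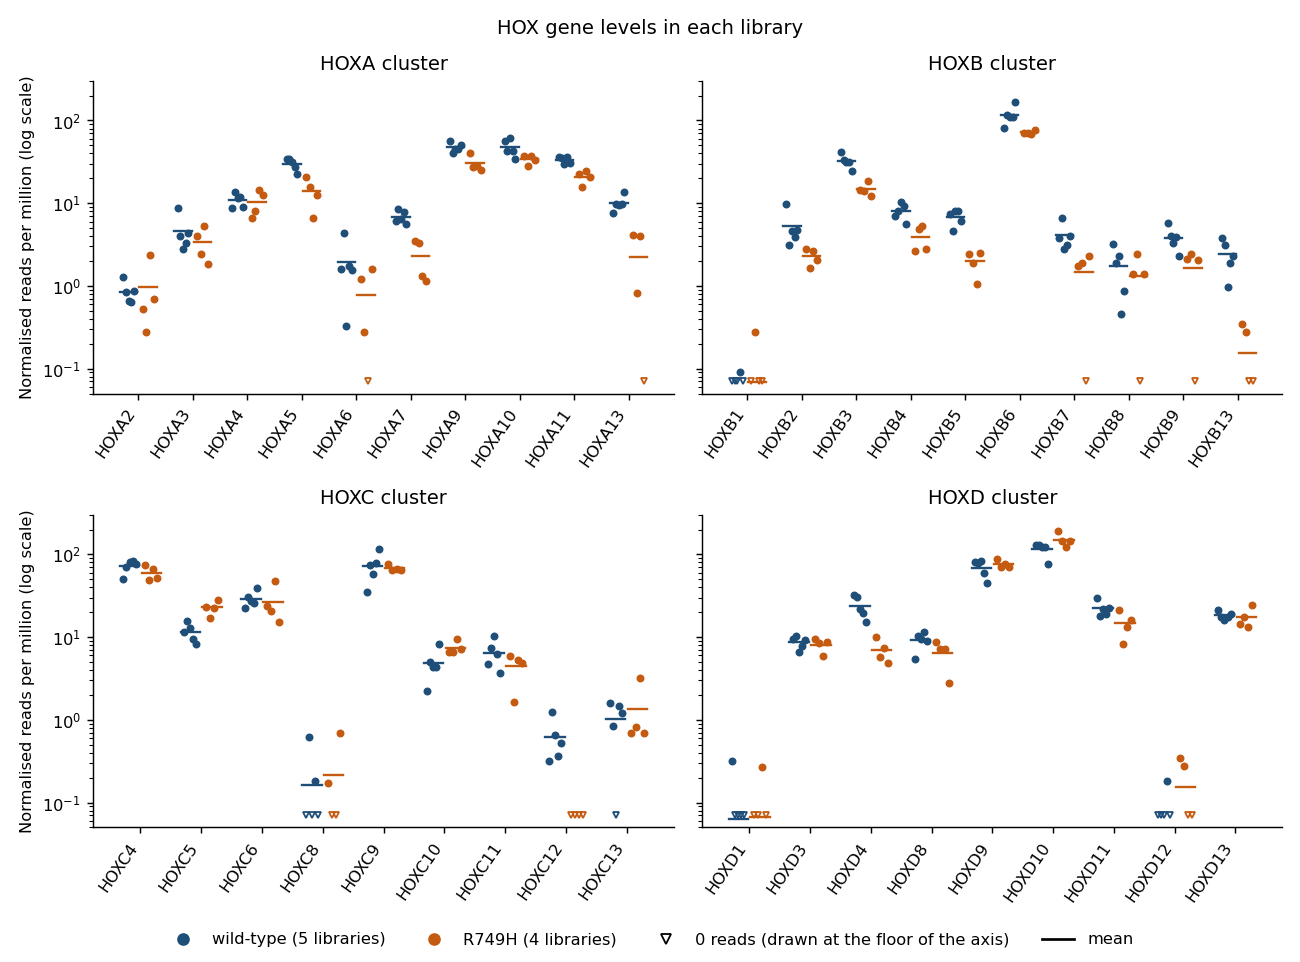
Level of HOX genes in each library, in normalised RPM on a log axis, with 1 panel per cluster. Points are libraries (blue wild-type, orange R749H), lines are means and open triangles are libraries with 0 reads. Most HOXB genes sit lower in R749H, while HOXC5 sits higher.

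In the HOXA cluster on chromosome 7, HOXA5, HOXA7, HOXA9, HOXA11 and HOXA13 were lower in R749H. HOXA5, a factor of thoracic and lung patterning, was at 33.9, 34.7, 31.1, 27.1 and 22.7 in wild-type replicates 1 to 5 and at 20.5, 15.9, 6.66 and 12.7 in R749H replicates 1 to 4. All R749H values were under all wild-type values, and the log2 difference was -1.19 ± 0.28 (SE, adjusted p = 0.00621, limma). HOXA7, of the central group, was at 6.08, 8.56, 6.36, 7.83 and 5.60 in wild-type and 3.48, 3.29, 1.33 and 1.15 in R749H, again without overlap (log2 difference -1.68 ± 0.38, adjusted p = 0.00546, limma). HOXA7 rested on few reads, 259 in all, with 5 in each of R749H replicates 3 and 4.

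The posterior genes HOXA9 and HOXA10, which pattern limbs and the urogenital tract, were the most abundant of the cluster. HOXA9 was at 56.3, 40.3, 45.8, 45.3 and 50.5 in wild-type and 40.2, 27.7, 28.2 and 25.4 in R749H. The groups came close without overlapping, at a log2 difference of -0.66 ± 0.19 (adjusted p = 0.0204, limma), and the call was lost without R749H replicate 2, 3 or 4 (adjusted p = 0.0747, 0.0507 and 0.0715). HOXA10 was at 57.3, 43.2, 61.5, 42.7 and 34.3 in wild-type and 37.7, 28.2, 36.7 and 33.2 in R749H. These groups overlapped and the difference of -0.47 ± 0.20 on the log2 scale did not pass (adjusted p = 0.105, limma), though it did without wild-type replicate 5 (-0.58, adjusted p = 0.0398).

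HOXA11, which acts in the limb, kidney and uterus, was at 36.1, 35.5, 29.8, 36.2 and 30.3 in wild-type and 22.4, 15.6, 24.5 and 20.5 in R749H. The log2 difference was -0.71 ± 0.20 (adjusted p = 0.0162, limma), and without R749H replicate 2 it did not pass (-0.56, adjusted p = 0.081). HOXA13, the most posterior gene, was at 7.68, 9.81, 9.46, 9.65 and 13.6 in wild-type and 4.17, 0.822, 3.99 and 0 in R749H. All R749H values were lower, and R749H replicates 2 and 4 were far under replicates 1 and 3. The log2 difference of -3.17 ± 0.80 (adjusted p = 0.00974, limma) depended on the 0.5 reads added to the library with none: it was -1.97 without R749H replicate 4 and -2.11 by edgeR’s quasi-likelihood test, and passed in both. The means were 10.0 ± 2.18 (SD, n = 5) and 2.25 ± 2.15 (SD, n = 4). Of the other tested genes, HOXA3 and HOXA4 had log2 differences of -0.42 and -0.13 and did not pass.

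In the HOXB cluster (coding span chr17:46606909-46805955), all 9 tested genes had log2 differences under 0, from -3.57 to -0.67, and HOXB3, HOXB4, HOXB5, HOXB6 and HOXB13 passed the test. HOXB6, the most abundant, held 67.0% of the reads of the cluster. It was at 80.6, 117, 109, 110.4 and 167 in wild-type and 69.9, 70.9, 68.7 and 76.99 in R749H, so the R749H libraries lay close together just under the lowest wild-type library. The log2 difference was -0.67 ± 0.19 (adjusted p = 0.0204, limma), and it did not pass without R749H replicate 2 (adjusted p = 0.0621).

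HOXB3, an anterior gene that acts in the hindbrain, was at 41.3, 33.0, 31.6, 31.6 and 24.3 in wild-type and 14.6, 13.97, 18.6 and 12.2 in R749H. The groups were well apart, with a log2 difference of -1.11 ± 0.21 (adjusted p = 0.00151, limma). HOXB4, known for its action in blood stem cells, was at 7.04, 8.14, 10.3, 9.29 and 5.60 in wild-type and 2.61, 4.93, 5.32 and 2.77 in R749H. Its log2 difference of -1.07 ± 0.32 (adjusted p = 0.0225, limma) rested on few reads, and adjusted p rose to 0.0512, 0.0627, 0.0628, 0.0525 and 0.0694 without wild-type replicate 2, 3 or 4 or R749H replicate 1 or 4.

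HOXB5, which acts in the gut nervous system, was at 7.36, 4.59, 7.99, 8.01 and 6.12 in wild-type and 2.43, 1.92, 1.06 and 2.54 in R749H. Every R749H library was under every wild-type library (log2 difference -1.77 ± 0.36, adjusted p = 0.00245, limma). HOXB5 rested on 253 reads in all, fewer than the 323 of HOXB4. HOXB13, a posterior gene best known from the prostate, was at 3.84, 3.13, 0.978, 1.91 and 2.27 in wild-type and 0.348, 0.274, 0 and 0 in R749H. The R749H line was thus near the limit of detection for HOXB13 (log2 difference -3.57 ± 0.91, adjusted p = 0.0103, limma), and the difference was -2.37 with 2 reads added in place of 0.5, which also passed. HOXB2 and HOXB7 also did not overlap between the lines but did not pass (-1.08 and -2.06, adjusted p = 0.0546 and 0.0632, limma). Both passed by DESeq2 (adjusted p = 0.0362 and 0.0289) and with the authors’ scaling alone (adjusted p = 0.0179 and 0.0221, limma). They did not pass by edgeR (adjusted p = 0.0502 and 0.0585). HOXB8 and HOXB9 overlapped (-0.84 and -1.87). HOXB7, HOXB8 and HOXB9 had 0 reads in R749H replicate 3, and without that library their differences were -0.92, 0.25 and -0.69. By edgeR they were -1.40, -0.28 and -1.15.

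In the HOXC cluster (coding span chr12:54332691-54448989), HOXC5 was the single gene past the threshold and it was higher in R749H. HOXC5 was at 11.5, 15.9, 12.7, 9.38 and 8.22 in wild-type and 23.3, 17.3, 22.6 and 28.1 in R749H. All R749H libraries were above all wild-type libraries, and the level was 1.99-fold that of wild-type (log2 difference 0.99 ± 0.24, adjusted p = 0.00755, limma). With the authors’ scaling alone it was 0.65 and just missed the threshold (adjusted p = 0.0508, limma). The HOXC5 site, with 99.7% of its reads pooled over the lines, lies in the 3’ UTR of HOXC5 and also inside the annotated HOXC4 on the same strand. Whether these reads stem from HOXC5 or HOXC4 transcripts was not tested. HOXC4, known to share a primary transcript with HOXC5 and HOXC6, was at 50.2, 70.1, 80.2, 82.5 and 77.5 in wild-type and 73.9, 48.8, 66.8 and 51.2 in R749H. These groups overlapped (-0.26 ± 0.20, adjusted p = 0.359, limma).

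HOXC9, the most abundant gene of this cluster, was at 35.5, 74.9, 58.5, 78.6 and 116 in wild-type and 76.2, 64.6, 66.6 and 65.2 in R749H. Wild-type libraries spread over a far wider range than R749H libraries, which fell inside it (log2 difference 0.01 ± 0.26, adjusted p = 0.989, limma), and the sign turned under other settings. HOXC6, HOXC10 and HOXC11 had log2 differences of -0.23, 0.71 and -0.60 and did not pass.

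In the HOXD cluster (coding span chr2:176957619-177054870), HOXD4 was lower in R749H and the abundant posterior genes were not called. HOXD4, which acts in the hindbrain and neck vertebrae, was at 32.6, 30.3, 22.2, 19.8 and 15.0 in wild-type and 9.91, 5.75, 7.45 and 4.84 in R749H. The lines were well apart, with wild-type 3.39-fold higher (log2 difference -1.76 ± 0.28, adjusted p = 0.000443, limma), the lowest adjusted p of the HOX genes, and it passed under every alternative run. Most reads counted as HOXD4 came from its distal ends, outside the annotated HOXD4 gene and inside HOXD3 (43.4% and 42.8%, pooled over the lines). Whether these reads stem from HOXD4 or HOXD3 transcripts was not tested.

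HOXD10 and HOXD9, which pattern the limb, were at the highest levels of the cluster. HOXD10 was at 131, 129, 122, 123 and 76.6 in wild-type and 193, 145, 123 and 144 in R749H. Wild-type replicate 5 was low and R749H replicate 1 high, and the difference did not pass (0.38 ± 0.20, adjusted p = 0.161, limma). HOXD9 was at 80.0, 78.1, 82.8, 60.002 and 45.1 in wild-type and 88.3, 70.4, 76.1 and 69.8 in R749H, with overlap (0.17 ± 0.20, adjusted p = 0.575, limma). HOXD3, HOXD8, HOXD11 and HOXD13 had log2 differences of -0.10, -0.58, -0.66 and -0.12 and did not pass.

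**Figure D2:**
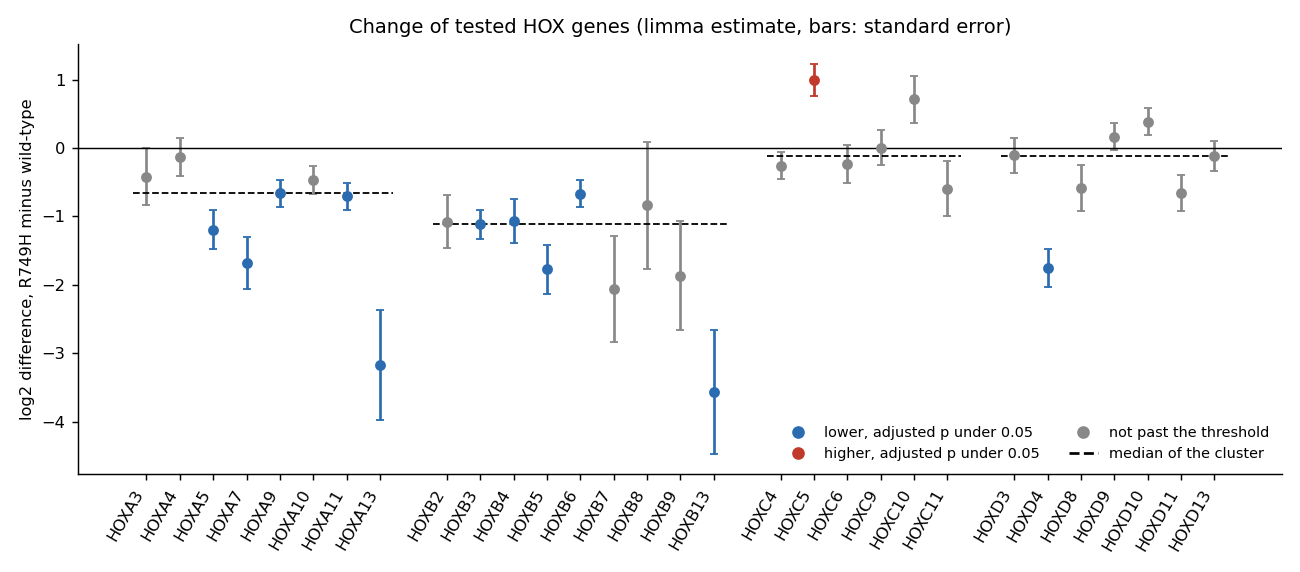
Log2 difference (R749H minus wild-type) of tested HOX genes, ordered by cluster and number, as the limma estimate with its standard error. Blue genes were lower and the red gene, HOXC5, was higher at an adjusted p under 0.05, grey genes were not past the threshold, and dashed lines are medians over all tested genes of a cluster.

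The 8 genes that were not tested, HOXA2, HOXA6, HOXB1, HOXC8, HOXC12, HOXC13, HOXD1 and HOXD12, had at most 71 reads in all and a mean of at most 1.92 in either line. HOXC12 had 18 reads over the wild-type libraries (1, 6, 4, 4 and 3) and 0 in every R749H library. Its pooled wild-type level stood 3.41-fold above a floor of 3 counts over all R749H libraries. This floor covers the counting error of the R749H libraries only, and the error of the 18 wild-type reads is not in it.

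Paralogs of 1 number did not share a direction in every case. In group 5, HOXA5 and HOXB5 were lower and HOXC5 was higher. In group 4, HOXB4 and HOXD4 were lower, and HOXA4 and HOXC4 did not pass (-0.13 and -0.26). In group 9, HOXA9 was lower, and HOXB9, HOXC9 and HOXD9 did not pass (-1.87, 0.01 and 0.17, with HOXB9 at -0.69 without R749H replicate 3). In group 13, HOXA13 and HOXB13 were lower and HOXD13 did not pass (-0.12), at 18.3 ± 1.93 (SD, n = 5) in wild-type and 17.3 ± 4.93 (SD, n = 4) in R749H. By position, 1 of 5 tested genes of groups 1 to 3, 6 of 13 of groups 4 to 8 and 4 of 13 of groups 9 to 13 were called lower, beside 12.9% of all genes.

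Summed over the genes of a cluster, HOXA and HOXB were lower in R749H and HOXC and HOXD were close to wild-type. HOXA was at 233, 208, 210.2, 199.9 and 184 in wild-type and 157, 115, 137 and 122 in R749H, and HOXB was at 163, 181, 173, 173 and 218 in wild-type and 97.9, 101, 96.4 and 102 in R749H. Neither sum overlapped between the lines, and the log2 differences were -0.65 and -0.86. HOXC was at 129, 206, 195, 209 and 254 in wild-type and 210.4, 160.2, 222 and 173 in R749H (log2 difference -0.03). HOXD was at 310.3, 294, 281, 259 and 197 in wild-type and 346, 262, 247 and 270.2 in R749H (log2 difference 0.07). Both of these overlapped. No p is given for sums over chosen genes.

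As shares of all HOX reads, HOXA went from 24.2% ± 2.31 (SD, n = 5) in wild-type to 18.8% ± 0.782 (SD, n = 4) in R749H, and HOXB from 21.2% ± 2.44 to 14.2% ± 1.69, without overlap. HOXC and HOXD, at 23.2% and 31.4% in wild-type and 27.2% and 39.8% in R749H, overlapped. These shares do not depend on the scaling between libraries. The sum over all HOX genes was 855 ± 21.7 (SD, n = 5) in wild-type and 705 ± 75.4 (SD, n = 4) in R749H. In RNA of whole cultures, fewer cells that express a gene and less RNA per cell cannot be told apart.

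**Figure D3:**
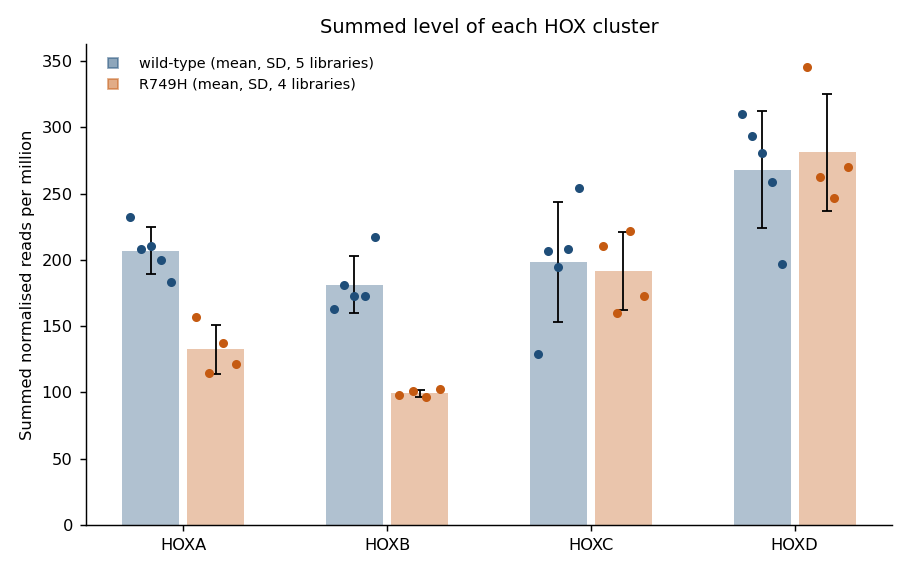
Summed level of each HOX cluster in normalised RPM, with bars for means, error bars for SD and points for libraries (5 wild-type, 4 R749H). HOXA and HOXB do not overlap between the lines, and HOXC and HOXD do.

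The other genes on the same stretch of chromosome were set beside each cluster. Within 5 Mb of HOXB, 73 other tested genes had a median log2 difference of -0.77, and 31 were lower and 3 higher (42.5% and 4.11%, against 12.9% and 10.9% of all genes). Within 2 Mb the median was -0.96, with 20 of 39 genes lower and 0 higher by limma. Over all of chromosome 17 it was -0.42, with 30.8% of 603 genes lower. Beside these stands the median of -1.11 for the HOXB genes themselves.

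Within 5 Mb of HOXA, 23 other genes had a median of -0.15, with 1 lower and 2 higher, beside a median of -0.66 for the HOXA genes. The HOXC neighbourhood had a median of -0.33 over 140 genes (27 lower, 8 higher), beside -0.11 for the HOXC genes. The HOXD neighbourhood had a median of -0.08 over 31 genes (3 lower, 0 higher by limma), beside -0.12 for the HOXD genes. For the counts of 0 higher around HOXB and HOXD, 0 genes were also higher at an unadjusted p under 0.05 and by edgeR and DESeq2. The part of the neighbourhood in the values of the HOX genes was not tested. The copy number of these regions in the lines was not analysed here, so its part in the HOXB and chromosome 17 values was not tested either.

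**Figure D4:**
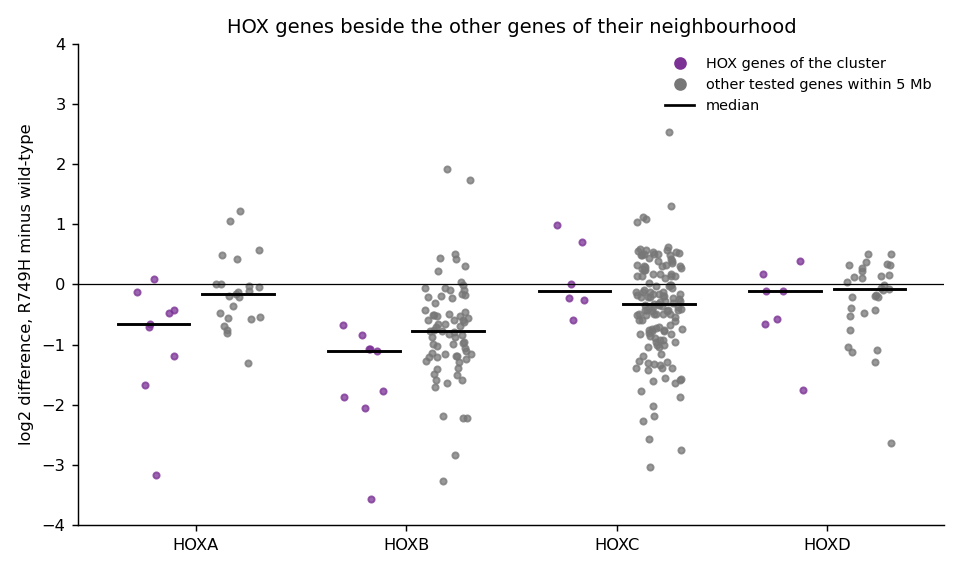
Log2 difference (R749H minus wild-type) of the tested HOX genes of each cluster (purple) and of the other tested genes within 5 Mb (grey), with medians as black lines. The grey genes around HOXB have a median of -0.77, and those around HOXA, HOXC and HOXD have -0.15, -0.33 and -0.08.

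The R749H line was also compared with the wild-type line for where HOX RNAs end. For each gene, reads downstream of the pooled median 3’ end were set against reads at or upstream of it. No HOX gene of 27 tested passed for such a shift (limma on log2 odds), where 4 of 7754 genes (0.0516%) did. At an unadjusted p under 0.05, 6 HOX genes and 745 genes in all (9.61%) passed. Of the 6, HOXA5, HOXC11 and HOXD3 had log2 odds under 0 (upstream in R749H), and HOXA7, HOXB5 and HOXD11 above 0. Of all genes, 5.88% passed this unadjusted threshold with log2 odds under 0 and 3.73% with log2 odds above 0. HOXB5 came nearest, at log2 odds of 2.46 (adjusted p = 0.0898, limma), with 4 to 14 reads in each R749H library. HOXB5 and HOXA7 were divided at the downstream edge of their only site, so few or no reads lay downstream. Their log2 odds rest largely on the reads added before the odds were taken, and cannot be read as shifts. The median log2 odds were -0.22 for HOX genes and -0.10 for all genes, and 16 of 27 HOX genes and 58.1% of all genes were under 0.

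Positions no more than 24 nt apart were joined into poly(A) sites, and 15 of the 27 HOX genes (55.6%) had a single site with at least 5% of their reads, against 56.7% of all genes. No HOX site of 29 tested, in 12 genes, passed for its share, where 9 of 8874 sites (0.101%) did, and 5 HOX sites and 1206 sites in all (13.6%) passed an unadjusted p under 0.05. The main end of HOXA5, 777 nt after the stop codon, held 98.1%, 97.6%, 95.8%, 95.3% and 94.6% of the reads in wild-type and 79.7%, 91.4%, 80.0% and 78.2% in R749H. The groups did not overlap (log2 odds -2.45 ± 0.48, adjusted p = 0.111, limma), and the site passed when a mean of 50 reads was required (adjusted p = 0.0453) or the prior variance followed read number (adjusted p = 0.0391). HOXA5 had 106 to 298 reads in each wild-type library, and in the R749H libraries 25 to 118.

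The proximal end of HOXD4, 283 nt after the stop codon, held 16.7%, 9.66%, 19.9%, 15.2% and 9.30% in wild-type and 3.51%, 4.76%, 0% and 4.76% in R749H. These groups did not overlap either (log2 odds -1.96 ± 0.57, adjusted p = 0.232, limma), and R749H libraries held 21 to 57 HOXD4 reads. The proximal HOXD4 site and the main HOXA5 site were the 2 of 29 tested HOX sites without overlap. The share of all sites without overlap was not computed. Both distal ends of HOXD4, at 3065 and 3128 nt, held 44.1% and 40.2% in wild-type and 49.4% and 45.7% in R749H, with overlap. The only site of HOXD11 with at least 5% of its reads, which was not tested for that reason, held 87.2% ± 3.35 (SD, n = 5) in wild-type and 66.3% ± 13.8 (SD, n = 4) in R749H. HOXD11 had 30 and 50 reads in R749H replicates 2 and 3. In HOXC9, the proximal end held 68.6% ± 9.45 and 79.7% ± 2.54, and in HOXD3 59.7% ± 7.63 and 71.4% ± 4.402, with overlap in both. HOXB3 and HOXB7 ended at 1 site in every library with reads.

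**Figure D5:**
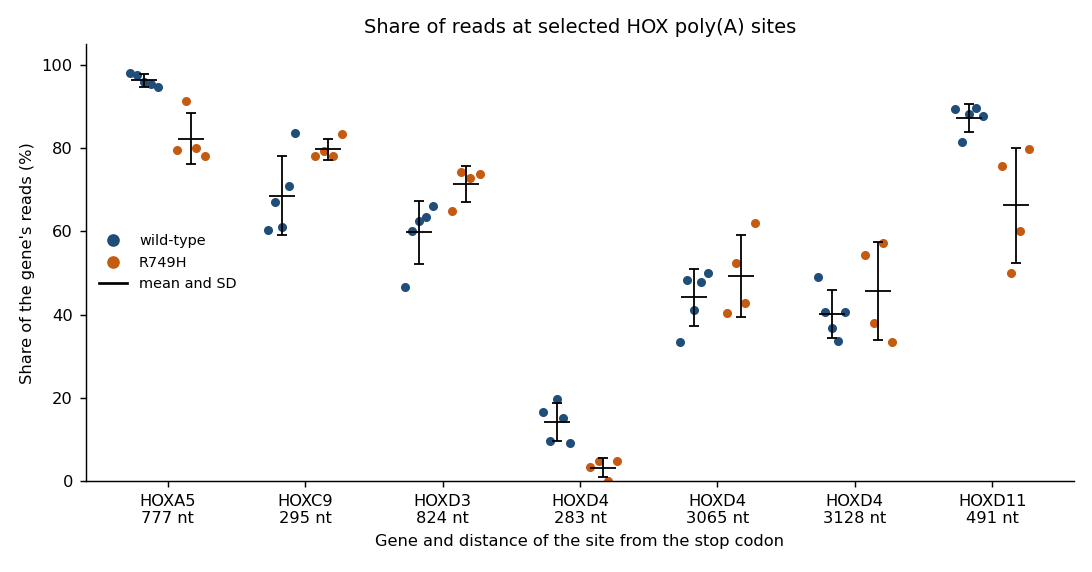
Share of a gene’s reads (%) at selected HOX poly(A) sites in each library (blue wild-type, orange R749H), with mean and SD, by gene and distance from the stop codon. The HOXA5 site at 777 nt, the HOXD4 site at 283 nt and the HOXD11 site at 491 nt do not overlap between the lines, and the others do. The sites were not chosen by a rule set in advance. Of 29 tested HOX sites, 2 did not overlap and none passed, and the HOXD11 site was not tested.

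Cofactors and regulators of HOX genes changed in both directions. The list of 11 TALE genes held the PBX, MEIS and PKNOX cofactors and also TGIF1 and TGIF2, which were not named as cofactors above. Of these 11, 2 were lower and 0 higher by limma (median log2 difference -0.27), where 12.9% of all genes were lower and 10.9% higher. There were 0 higher also at an unadjusted p under 0.05 and by edgeR and DESeq2. The lower genes were PKNOX2 at -1.27 ± 0.35 (adjusted p = 0.0168, limma) and PBX3 at -0.96 ± 0.31 (adjusted p = 0.0365, limma). TGIF1 and TGIF2, at -0.07 and 0.10, did not pass and draw the median of the list toward no change. Of 13 tested activators of HOX expression, 1 was lower and 3 were higher (median 0.095). RARG, a retinoic acid receptor, was lower (-1.58 ± 0.32, adjusted p = 0.0027, limma), and KDM6B, a demethylase of the Polycomb mark, was higher (1.09 ± 0.31, adjusted p = 0.02, limma).

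Of 20 tested Polycomb genes, 6 were lower and 2 higher (median -0.55), beside 12.9% and 10.9% of all genes. EZH1 and SUZ12, subunits of the complex that writes the H3K27 methyl mark, were lower (-1.80 ± 0.22 and -2.51 ± 0.81, adjusted p = 6.36e-05 and 0.0333, limma), as was PHF19, an accessory subunit (-0.84 ± 0.24, adjusted p = 0.0201, limma). SUZ12 rested on 90 reads in all, with a mean of 0.659 RPM in R749H and 0 in the lowest library. EZH2, the relative of EZH1, was higher (0.73, adjusted p = 0.0141, limma). EZH1, SUZ12 and KDM6B lie on chromosome 17, as HOXB does, and so does PCGF2, which was called lower (-0.67). RARG lies on chromosome 12 within 5 Mb of HOXC and was counted among the HOXC neighbours. EVX2, beside HOXD, had too few reads to test, and EVX1, beside HOXA, was not listed.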

How the data were processed

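Human cell lines expressing wild-type or R749H Rpb1 were measured by 3’ READS. The authors mapped poly(A) reads to hg19 with bowtie, listed each 3’ end under the CCDS gene whose stop codon lay within 5 kb before it, and deposited signal values, the reads of a 3’ end after scaling every replicate to a total of 7 M. Whole reads were recovered by dividing each library by the value of 1 read, and 99.98% or more of the values came out whole within 0.0051 scaled reads. All 39 HOX stop codons lay within 1 nt of one in the GRCh37 annotation. The 4 eNETseq samples were not used here.

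Reads were summed per gene, filtered with filterByExpr, and compared with limma 3.58.1 on log2 RPM (TMM factors, 0.5 reads added), with Benjamini-Hochberg adjustment over all genes and a threshold of 0.05. Shifts and site shares were tested on log2 odds with limma where a gene averaged 20 or more reads. edgeR 4.0.16 and DESeq2 1.42.0 were alternatives on the recovered counts. In simulated data, limma recovered 83 of 189 planted expression changes of log2 size 1 with 4 false calls among 9283 genes. It recovered 147 of 200 shifts (24 false calls) and 167 of 200 site shares (10 false calls) of log2 odds 3. For shifts and site shares the simulated spread between libraries was a fixed setting, not estimated from these data. Their recovery therefore does not give the power of the tests on the real libraries.

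No pair of libraries within a line was alike within sampling noise (chi-square per degree of freedom 3.76 to 33.8 over 16 pairs). The floor given for HOXC12 covers counting error only, whereas SE and SD values come from the spread between libraries. The members and gene lists were chosen with earlier results of these data known. Every HOX gene entered the counts and sums, and full statistics were given for each past the threshold and for the 2 most abundant of each cluster. Of the regulator lists, the called genes with the largest change, up to 8, were named, and EZH2 was set beside EZH1 after its value was seen. The values of 1 HOX gene and 1 regulator are not reported here.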

Additional observations from a re-analysis of the deposited data

Results flagged for a closer look

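Single libraries stood apart from the others of their line in 13 of 130 groups of values, where chance would give 6.5. By level, wild-type replicate 1 was high for HOXA3 (8.64 RPM, others 2.77 to 4.37) and HOXB2 (9.92, others 3.13 to 4.72), and wild-type replicate 5 was low for HOXD10 (76.6, others 122 to 131). R749H replicate 3 had no HOXB9 reads (0, others 2.07 to 2.47), and R749H replicate 1 was high for HOXC9 (76.2, others 64.6 to 66.6).

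By share of the reads of a gene, R749H replicate 3 held 30% at the proximal HOXB2 site (others 88.9% to 100%) and 70.0% at the distal one, which the other R749H libraries did not use, and wild-type replicate 1 held 3.23% there where the other wild-type libraries had 0%. R749H replicate 2 stood apart at the main HOXA5 site (91.4%, others 78.2% to 80.0%) and at the fourth HOXD8 site (19.2%, others 7.41% to 8.33%). Wild-type replicate 1 held 58.5% at the main HOXA9 site (others 76.1% to 82.2%). R749H replicate 1 held 64.8% at the proximal HOXD3 site (others 72.7% to 74.2%), and R749H replicate 4 held 56.2% at the proximal HOXD13 site (others 22.0% to 26.8%).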

How the results depend on the processing

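HOX genes called lower numbered 10 to 13 with RLE factors, no filter, edgeR, DESeq2, a prior of 2 reads or thinned libraries, and 1 was higher in each. Leaving out 1 library gave 8 to 11 lower, 1 to 1 higher and 9 to 12 in all. With the authors’ scaling alone, 17 were lower and 0 higher (over all genes, 2627 and 431), the regulator lists had 23 calls, the cluster sums changed by -0.99, -1.20, -0.38 and -0.27 (HOXA to HOXD, log2), the neighbourhoods by -0.48, -1.10, -0.67 and -0.42, and HOXC9 and HOXD9 turned to -0.34 and -0.17. The cluster sums also moved without the most abundant gene (HOXB -1.20, HOXD -0.22) and as means of log2 levels (HOXA -0.91, HOXB -1.48, HOXD -0.38). The HOXB neighbourhood was -0.96 within 2 Mb and -0.55 within 10 Mb. HOXC9 was also below 0 with no filter (-0.016), edgeR (-0.10) and DESeq2 (-0.086). The causes were not tested.

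With 1 library left out, all genes called lower ranged from 826 to 1468 and higher from 694 to 1196, and the regulator lists from 9 (without wild-type replicate 2 or R749H replicate 2) to 16 calls. The cluster sums ranged from -0.73 to -0.58 (HOXA), -0.90 to -0.79 (HOXB), -0.18 to 0.07 (HOXC) and -0.03 to 0.13 (HOXD), and the neighbourhoods from -0.33 to -0.086, -0.87 to -0.69, -0.37 to -0.27 and -0.11 to -0.003. The HOXA neighbourhood was -0.26, -0.27 and -0.33 without wild-type replicate 5, R749H replicate 1 and R749H replicate 4. HOXA4 (-0.29 to 0.071), HOXB8 (-1.37 to 0.25), HOXC6 (-0.53 to 0.015), HOXD3 (-0.21 to 0.071) and HOXD13 (-0.27 to 0.022) turned above 0 in 1 such fit each, and HOXC9 (-0.23 to 0.20) fell below 0 in 3. HOXB8 and HOXB13 did not pass the filter in 5 and 4 of these 9 fits. HOX shifts and site shares had 0 to 0 calls.

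A prior of 2 reads called 2 HOX shifts, HOXA7 and HOXB5 (log2 odds 2.42 and 2.06). Both genes were divided at the downstream edge of their only site, so few or no reads lay downstream. These calls rest on the reads added and cannot be read as shifts. A mean of 50 reads or a variance trend on read number, the latter chosen after seeing the data, called 1 site each, in HOXA5. Same-numbered replicates did not deviate together (correlations -0.07, 0.05, 0.02 and -0.05), no library correlated best with its own number, and with the replicate block 10 HOX genes were lower and 1 higher, against 11 and 1 in the same libraries without it (HOXB6 at an adjusted p of 0.0505 against 0.0338, limma). Ends listed under 1 gene, or under the nearest stop codon, were all ends, so these alternatives were not run. Depth limits HOXB13, HOXA13 and the R749H site shares.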

Other observations

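Abundant chromatin regulators of HOX genes other than those with the largest changes were also called, and were chosen after their values were seen. DOT1L, the H3K79 methyltransferase, went from 352 ± 71.3 (SD, n = 5) RPM in wild-type to 604 ± 34.7 (SD, n = 4) in R749H (log2 difference 0.80, adjusted p = 0.00338, limma), and KMT2B, an H3K4 methyltransferase, from 175 ± 22.5 to 295 ± 45.3 (0.75, adjusted p = 0.00395, limma). EZH2 was higher (0.73, adjusted p = 0.0141, limma), where its relative EZH1 was lower (-1.80). RBBP7, JARID2 and PCGF2 were lower, at -0.67 each.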
